A study of Mus musculus with 6 samples.

Results

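Cohesin was followed through 10 genes that encode its subunits and regulators, in secondary follicles of mice of 2 ages. The genes were Rec8, Smc1b and Stag3, which encode subunits made for meiosis, Rad21, Smc3, Stag1 and Stag2, which encode subunits used in dividing and resting cells alike, and the regulators Nipbl, Wapl and Esco1. A probe set, which is a group of short probes for a transcript on the array, was taken for a gene when the array annotation gave it that gene symbol and no other. This gave 28 probe sets among 34945 with a single gene symbol, from 1 for each meiosis-specific gene to 6 for Stag1, and no probe set carried a member's symbol together with another. The RNA came from secondary follicles, which hold a growing oocyte inside layers of granulosa cells, dissected by needle from the ovaries of female C57BL/6J mice kept free of specific pathogens. The young mice were 9 weeks old and the old mice 32 weeks old, and the labels name no transgene or treatment. Each age had 3 samples, each on 1 Affymetrix GeneChip array for the mouse genome. The samples were labelled biological replicates, but neither the labels nor the methods say how many mice or follicles went into each, and p-values therefore measure only how far these samples spread.

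Cohesin is a ring of proteins that holds the sister copies of a chromosome together from replication until they part, and that also folds chromosomes into loops. SMC proteins form the arms of the ring, a kleisin (RAD21, or REC8 in meiosis) closes it, and a STAG protein sits on the kleisin. NIPBL loads the ring onto DNA, ESCO1 acetylates SMC3 so that the ring stays closed, and WAPL opens it. In the oocyte, cohesin with REC8 is put in place before birth and has to hold until ovulation, and loss of this protein from chromosomes with maternal age is a known source of errors in chromosome segregation. The arrays measured RNA, not the protein on chromosomes.

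The promoters of the 3 meiosis-specific genes are shown because transcription of these genes is kept to germ cells, in part by E2F6, a repressor that acts on meiotic genes in somatic cells. The sequences come from RefSeq (GRCm38.p6) and run 5′ to 3′ along the gene from 250 bases before its annotated start to 50 bases after it, with the E2F core GCGGGA in capitals where it occurs, here always on the opposite strand as TCCCGC.
Rec8, chr14:55617916-55618215, forward strand: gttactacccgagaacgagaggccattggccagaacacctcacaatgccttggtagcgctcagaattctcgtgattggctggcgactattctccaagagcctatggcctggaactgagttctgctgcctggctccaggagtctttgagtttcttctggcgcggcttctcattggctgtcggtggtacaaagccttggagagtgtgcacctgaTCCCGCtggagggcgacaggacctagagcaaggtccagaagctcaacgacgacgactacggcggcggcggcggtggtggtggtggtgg
Smc1b, chr15:85131908-85132207, reverse strand: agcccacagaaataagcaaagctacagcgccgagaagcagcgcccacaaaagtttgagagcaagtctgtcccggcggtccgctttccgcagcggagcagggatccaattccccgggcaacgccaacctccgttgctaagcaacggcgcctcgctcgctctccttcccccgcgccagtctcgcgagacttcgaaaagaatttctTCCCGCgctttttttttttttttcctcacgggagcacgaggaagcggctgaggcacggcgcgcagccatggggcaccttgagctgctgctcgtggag
Stag3, chr5:138280259-138280558, forward strand: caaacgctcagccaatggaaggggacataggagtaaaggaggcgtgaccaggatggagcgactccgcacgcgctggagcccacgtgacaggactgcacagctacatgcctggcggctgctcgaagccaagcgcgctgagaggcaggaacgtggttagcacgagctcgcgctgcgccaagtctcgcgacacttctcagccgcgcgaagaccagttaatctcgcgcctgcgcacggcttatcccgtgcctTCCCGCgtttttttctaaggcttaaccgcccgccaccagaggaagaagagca
The core began 38 bases before the start in Rec8, 47 bases before it in Smc1b and 2 bases before it in Stag3. On either strand, it was found in 20.0% of all 32851 promoters of this length. It was also in the promoters of Smc3, Stag1 and Smc1a, which are not confined to meiosis. The lookup covered 10 cohesin genes, with Smc1a among them and the member Esco1 set aside by hand. Of these 10, 7 had a promoter among the 32851, and of those 7 only Wapl lacked the core. Whether Esco1 has it is not given here. The E-box CACGTG, which reads the same on both strands, was found in the Stag3 promoter, 170 bases before the start and apart from the E2F core, and in 7.15% of all promoters. Such a match describes the letters and does not show that a factor binds there.

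The values were log2 of RMA intensities, in which background correction and normalization between arrays had been done by the authors. Array medians lay between 4.93 and 4.95, and further normalization of the arrays by quantiles or cyclic loess moved some members' values, as given with the results. A probe set passed when limma gave an adjusted p of at most 0.05 over all 34945 probe sets, and it was called differentially expressed when it also changed by a fold of at least 2, the threshold in the methods of the study. Of all probe sets, 13.8% passed as lower and 8.95% as higher in the old samples, and 0.552% were called lower and 0.466% higher. The young and old groups did not overlap, lower in the old samples, for 23.7% of all probe sets, and for 17.6% in the higher direction. The arrays of the ages differed in their control transcripts. The 3' probe set of Gapdh exceeded its 5' probe set by 0.46 to 0.48 on the young arrays and by 1.503 to 1.512 on the old arrays (log2), and that of beta-actin by 1.45 to 1.52 and 2.47 to 2.57. Probe sets of 6 Y-linked genes, which female mice lack, give a rough idea of the signal without a transcript. Of these 13 probe sets, 12 had mean levels between 1.78 and 3.21, and 1 had 4.79.

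Of the 28 cohesin probe sets, 9 passed as lower in the old samples and limma passed none as higher. Before adjustment, p under 0.05 held for 15 lower and 2 higher ones, where 20.7% of all probe sets were lower and 15.5% higher. After quantile or cyclic loess normalization the split was 10 lower and 2 higher. No probe set reached a fold of 2. The groups did not overlap for 14 probe sets in the lower and 2 in the higher direction. The median log2 fold change of the 28 was -0.195, against -0.01 over all probe sets tested, and 20 of them (71.4%) were below 0, against 51.9% of all probe sets. A separate fit left out probe sets under the median level. Of the remaining 17473, 30.6% passed as lower and 13.5% as higher, with a median of -0.059. That fit estimated the spread and adjusted p anew, so its shares are not those of bright probe sets in the fit over all. Of the 20 member probe sets in that separate fit, 8 passed as lower and 2 as higher. The 9 that were lower in the fit over all probe sets belonged to Smc1b, Rad21, Stag1, Stag2, Nipbl and Esco1. Only for Smc1b and Nipbl was the brightest probe set of the gene among them. The plot of log2 intensities by array shows every probe set, and the plot of changes gives each with its interval.

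**Figure D1:**
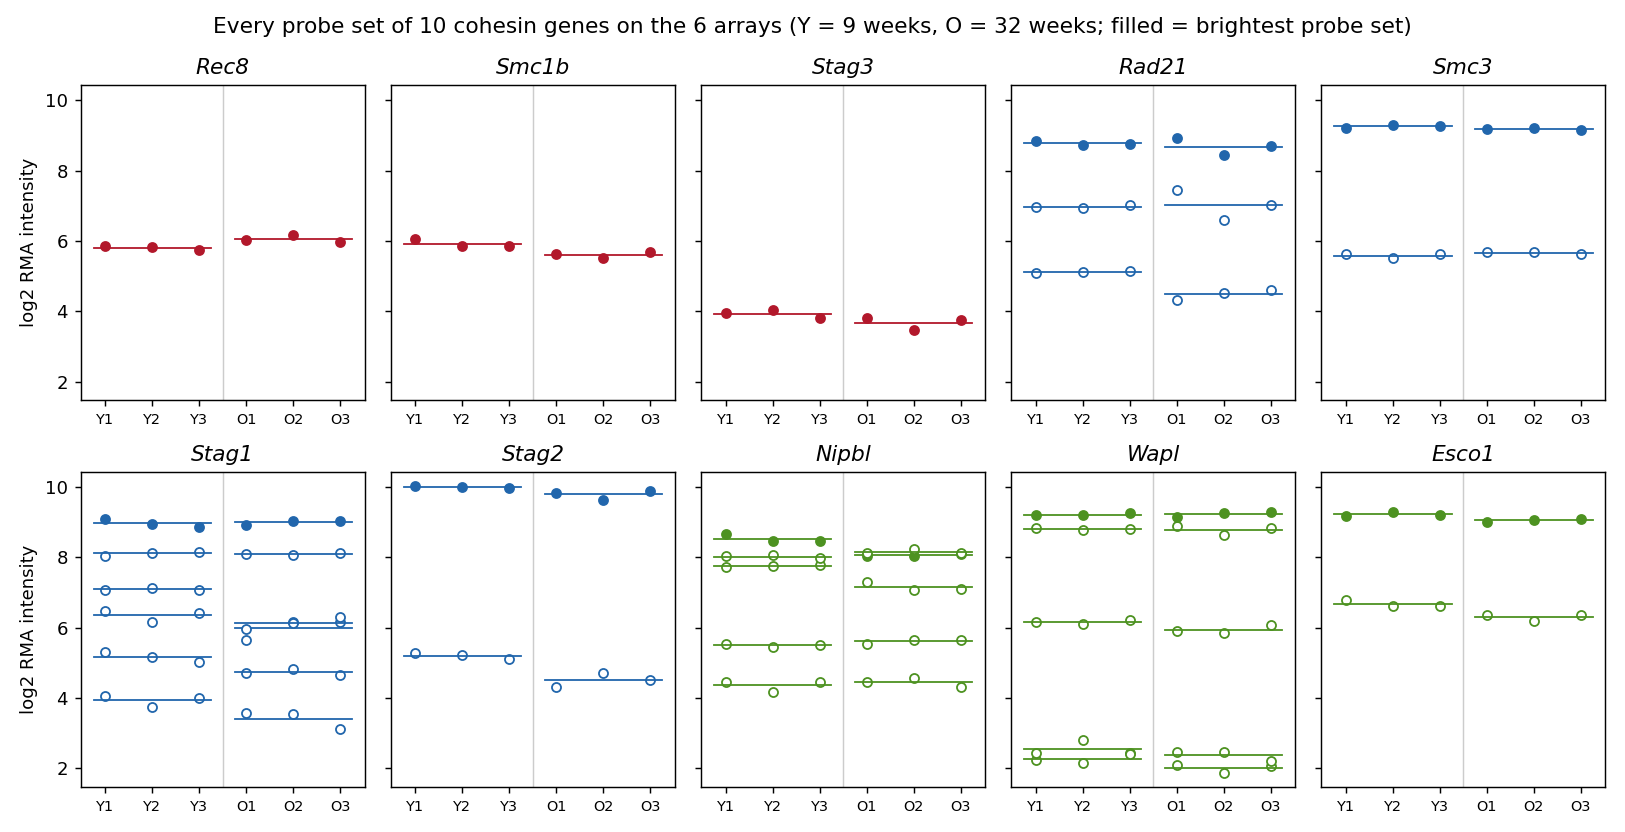
Log2 RMA intensity (vertical axis) of all 28 probe sets of 10 cohesin genes on the 3 arrays of young (Y1 to Y3) and the 3 arrays of old mouse follicles (O1 to O3), with a line at each group mean and the brightest probe set of a gene filled. The old arrays lie apart from the young arrays for 1450420_at of Stag1 and 1450396_at of Stag2, while the old arrays of 1455938_x_at of Rad21 spread from 6.60 to 7.46. Levels of different probe sets are not comparable.

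**Figure D2:**
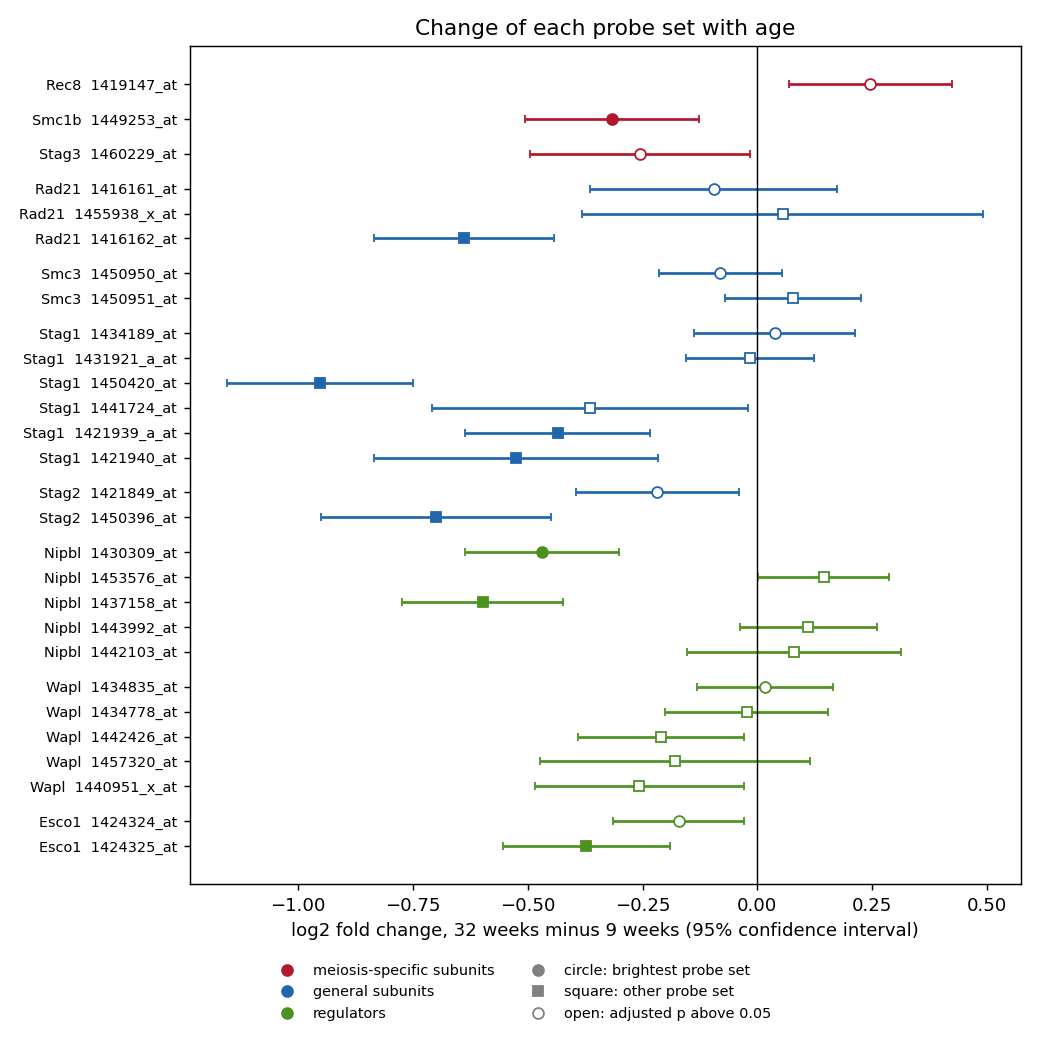
Log2 fold change of old minus young (horizontal axis, with the 95% confidence interval from limma) for each of the 28 probe sets, by gene and from the brightest down, circles for the brightest and squares for the others, filled where the adjusted p was at most 0.05. The 9 filled points are all below 0, from -0.95 to -0.32, while Rec8 lies above 0.

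Of the 3 meiosis-specific genes, each with 1 probe set, 1 passed as lower and none as higher. Smc1b, the meiotic partner of SMC3 in the ring, was lower in the old samples. Its probe set was at 6.06, 5.87 and 5.84 in the young and at 5.63, 5.51 and 5.68 among the old samples (log2 intensity). Every old sample lay below every young sample, and the mean went from 5.92 ± 0.12 to 5.61 ± 0.087 (SD, n = 3 each). The log2 fold change was -0.32 (limma, adjusted p = 0.029, standard error 0.081). The pass was lost without young replicate 1 (-0.25, adjusted p = 0.066), young replicate 2 (-0.34, adjusted p = 0.057), old replicate 1 (-0.33, adjusted p = 0.063) or old replicate 2 (-0.27, adjusted p = 0.076), and the direction was kept.

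Rec8, the meiotic kleisin, was at 5.84, 5.84 and 5.73 in the young and at 6.02, 6.18 and 5.96 in the old samples. All old samples lay above all young samples, by a log2 fold change of 0.25 (95% confidence interval 0.069 to 0.42), but the adjusted p from limma was 0.054 over all probe sets. It passed under 6 of 18 alternative settings, none of which left out a sample, among them both further normalizations (0.29, adjusted p = 0.027 with quantile and 0.28, adjusted p = 0.028 with cyclic loess). Stag3, the meiotic STAG protein, was at 3.94, 4.03 and 3.80 in the young and at 3.80, 3.46 and 3.74 in the old samples. The groups met at 3.80, and the log2 fold change of -0.26 (95% confidence interval -0.50 to -0.016) did not pass (adjusted p = 0.12 from limma). The Stag3 probe set was dim, at a level that lay between the 12 dimmer Y-linked probe sets and the brightest of them.

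Markers of the oocyte, the cell of the follicle known for these 3 genes, were lower in the same old samples. Of 17 measured oocyte markers at their brightest probe set, 13 passed as lower and none as higher, and their median was -0.26 on the log2 scale, against -0.004 over all genes. Of all 18193 genes at their brightest probe set, 2248 passed as lower and 1699 as higher. The summed intensity of the oocyte markers ran from 32179 to 33061 on the young and from 26798 to 27223 on the old arrays (linear scale). Mos, a kinase of the meiotic cell cycle, had -0.63, Zp3 of the egg coat -0.54, the receptor gene Kit -0.49 and the germ cell helicase gene Ddx4 -0.53. In such bulk samples fewer or smaller oocytes and less RNA of these genes per oocyte cannot be told apart. The arrays of the ages also differed in their control transcripts, as given above. The part of that difference in the lower oocyte markers and in Smc1b was not tested. Relative to the mean of the 17 oocyte markers on the same array, a measure added after the values were seen, Smc1b differed by -0.003 between the ages (exact two-sided permutation test, p = 1.0), with means of -4.02 ± 0.11 and -4.02 ± 0.060. On that scale Stag3 differed by 0.058 (exact permutation test, p = 0.6, adjusted over the 3 genes 0.9). Rec8 differed by 0.56, from -4.14 ± 0.058 to -3.58 ± 0.14, without overlap (exact permutation test, p = 0.1, adjusted 0.3), and with 3 samples an age no p can be smaller than 0.1. This outcome for Rec8 was fixed in advance, since Rec8 was higher and the marker mean lower in every old sample. The marker mean itself went from 9.94 to 9.63, which is part of the 0.56.

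The 4 general subunits had 13 probe sets, of which 5 passed as lower and none as higher. Their median change was -0.218 on the log2 scale. None of the 4 brightest was among the 5, and their median was -0.088. Smc3, the SMC protein of every cohesin ring, had the steadiest pair. Its probe set 1450950_at was at 9.22, 9.29 and 9.28 in the young and 9.17, 9.22 and 9.15 in the old samples, and 1450951_at at 5.61, 5.50 and 5.64 and then 5.69, 5.68 and 5.62. The ages overlapped at both, and the intervals of the log2 fold change were -0.21 to 0.053 and -0.071 to 0.23 (limma, 95%).

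Rad21, the kleisin of mitosis, had 1 probe set of 3 that passed. That probe set, 1416162_at, was at 5.09, 5.13 and 5.15 in the young and at 4.32, 4.52 and 4.62 in the old samples, a decrease without overlap (log2 fold change -0.64, standard error 0.084, limma adjusted p = 0.0020). The brightest, 1416161_at, which the annotation gives the same source sequence, was at 8.84, 8.74 and 8.76 and then 8.92, 8.44 and 8.69, a change of -0.095 with an interval of -0.36 to 0.17. The third, 1455938_x_at, had the widest spread of all member probe sets among old samples, at 7.46, 6.60 and 7.03, against 6.95 to 7.02 in the young samples. At both of the brighter probe sets, old replicate 1 was the highest and old replicate 2 the lowest of the 6 samples.

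Stag1, whose protein sits on the kleisin in somatic cells, had the largest decrease among the 28. Probe set 1450420_at was at 7.08, 7.12 and 7.07 in the young and at 5.97, 6.14 and 6.30 in the old samples. Its groups were far apart, and the log2 fold change was -0.95 (limma, adjusted p = 4.0e-04, standard error 0.087). Without old replicate 3 it came to -1.03 and was then past a fold of 2. Probe sets 1421939_a_at and 1421940_at, which share the source sequence of 1450420_at, also passed, with -0.43 (adjusted p = 0.011) and -0.53 (adjusted p = 0.027, lost without young replicate 1, young replicate 3 or old replicate 3, with 0.087, 0.080 and 0.052). The 3 other probe sets of Stag1 come from other source sequences and none of them passed. The brightest, 1434189_at, was at 9.08, 8.93 and 8.87 and then at 8.92, 9.04 and 9.04, a change of 0.038 (95% confidence interval -0.14 to 0.21). Probe set 1431921_a_at had -0.015 (-0.15 to 0.12), and 1441724_at had -0.36 (-0.71 to -0.020, adjusted p = 0.12).

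Stag2, the other somatic STAG gene, had all old samples below all young samples at both of its probe sets, and the dimmer one passed. The bright probe set 1421849_at was at 10.03, 10.01 and 9.97 in the young and at 9.82, 9.64 and 9.89 in the old samples, a log2 fold change of -0.22 that missed the threshold (95% confidence interval -0.40 to -0.040, limma adjusted p = 0.079). It passed with the eBayes trend (adjusted p = 0.0066) and with probe sets under the median level left out (adjusted p = 0.027). The dimmer 1450396_at went from 5.29, 5.23 and 5.09 to 4.30, 4.71 and 4.51, a change of -0.70 (standard error 0.11, adjusted p = 0.0038). With both averaged, Stag2 was at -0.46 and passed (adjusted p = 0.0021). Both carry the same source sequence in the annotation. At 1450396_at, at 1416162_at of Rad21 and at 1421939_a_at of Stag1 the old means of 4.50, 4.48 and 4.73 were under the level of the brightest Y-linked probe set, and 1421940_at of Stag1 was under it at both ages. All of these means lay above the 12 dimmer Y-linked probe sets.

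The 3 regulators had 12 probe sets, of which 3 passed as lower and none as higher, with a median of -0.175. The loader gene Nipbl was the only member with several probe sets whose brightest one passed. Probe set 1430309_at was at 8.65, 8.47 and 8.45 in the young and at 8.03, 8.04 and 8.10 in the old samples, which gave a log2 fold change of -0.47 (limma, adjusted p = 0.0038, standard error 0.072). Probe set 1437158_at went from 7.72, 7.76 and 7.77 to 7.30, 7.06 and 7.09, with -0.60 (adjusted p = 0.0017). Both decreases were without overlap. The other 3 probe sets of Nipbl lay slightly the other way, with 0.14 for 1453576_at, 0.11 for 1443992_at and 0.081 for 1442103_at, and none of these passed. At 1453576_at the old samples, at 8.13, 8.24 and 8.12, all lay above the young ones, at 8.02, 8.05 and 7.98. It passed as higher after quantile (0.22, adjusted p = 0.030) or cyclic loess normalization (0.21, adjusted p = 0.032) and with probe sets under the median level left out (0.14, adjusted p = 0.0498). With all 5 averaged, Nipbl was at -0.15 and did not pass (adjusted p = 0.074).

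Esco1, the acetyltransferase, passed at 1 of its 2 probe sets, which share a source sequence. The dimmer 1424325_at went from 6.79, 6.63 and 6.61 to 6.36, 6.19 and 6.37, which gave a log2 fold change of -0.37 (limma, adjusted p = 0.014, standard error 0.079). The brighter 1424324_at went from 9.17, 9.29 and 9.20 to 9.01, 9.06 and 9.08, with -0.17 and an adjusted p of 0.084, also without overlap. It passed under 3 other settings that kept it as a single probe set, with adjusted p from 0.011 to 0.045, and with both averaged Esco1 was at -0.27 and passed (adjusted p = 0.0090). Wapl, the releasing factor, had no probe set past the threshold. Its brightest, 1434835_at, was at 9.20, 9.20 and 9.25 in the young and at 9.15, 9.25 and 9.30 in the old samples, with an interval of -0.13 to 0.16, and 1434778_at had -0.023 (-0.20 to 0.15). Probe set 1442426_at had -0.21 (adjusted p = 0.093). The other 2, which share a source sequence, had group means of 2.01 to 2.55, within the range of the Y-linked probe sets, and had -0.26 and -0.18.

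Probe sets of 1 gene gave unequal log2 fold changes for Stag1, Nipbl, Rad21 and Stag2. The log2 fold changes of Stag1 spanned 0.99, against a median span of 0.59 in the 244 genes with as many probe sets. They spanned 0.69 for Rad21 (median 0.33 of 2366 genes), 0.48 for Stag2 (median 0.19 of 4695 genes) and 0.74 for Nipbl (median 0.53 of 463 genes). Wapl, with 0.27, spanned less than that median. Of the 18 member probe sets that were not the brightest of their gene, 7 passed as lower and none as higher, where 15.4% and 8.54% of such probe sets did over all genes with several. The brightest probe sets of those genes were lower in 14.8%. Of the 10 brightest of the members, 2 passed as lower. Fitted over genes with 1 probe set each, where 13.3% were lower and 10.1% higher, the 10 genes gave the same 2 lower, and Rec8 was higher (adjusted p = 0.047). The 3' minus 5' difference of Gapdh and beta-actin moved between the same arrays. Its part in the lower probe sets, dim or bright, was not tested, since the place of each along its transcript was not used here.

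The proteins of Rec8 and Rad21, of Smc1b and Smc1a, and of Stag3 and Stag1 or Stag2 hold the same place in cohesin. Each meiosis-specific gene was therefore set against its general paralog within each array, at the brightest probe sets. The difference between 2 probe sets has no meaning as a level, and its change with age shows that they moved unequally. Of the 4 pairs computed, Smc1b minus Smc1a changed most. It was at -3.36, -3.54 and -3.57 in the young and at -3.92, -4.16 and -3.93 in the old samples, a difference of -0.51 without overlap (exact two-sided permutation test, p = 0.1, the smallest possible, adjusted over the 4 pairs 0.267). Smc1a itself, whose protein takes the place of SMC1B in somatic cells, had 0.19 at its brightest probe set (adjusted p = 0.052) and -0.14 and 0.026 at its other 2. At that brightest probe set every old sample lay above every young sample, while for Smc1b every old sample lay below. The difference of the 2 genes was therefore bound to separate the ages. Its p from the permutation test was fixed in advance and adds nothing to their single values. With the mean of each gene's probe sets, Smc1b minus Smc1a differed by -0.34 (exact permutation test, p = 0.1). Rec8 minus Rad21 was at -2.99, -2.90 and -3.03 and then -2.90, -2.26 and -2.73, a difference of 0.34 (exact permutation test, p = 0.2, adjusted 0.267) that came to 0.15 without old replicate 2. Stag3 minus Stag1 differed by -0.29 (p = 0.2, exact permutation test, adjusted 0.267) and Stag3 minus Stag2 by -0.037 (p = 0.6, exact permutation test). Both turned to higher values, 0.12 and 0.20, with the mean of each gene's probe sets.

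**Figure D3:**
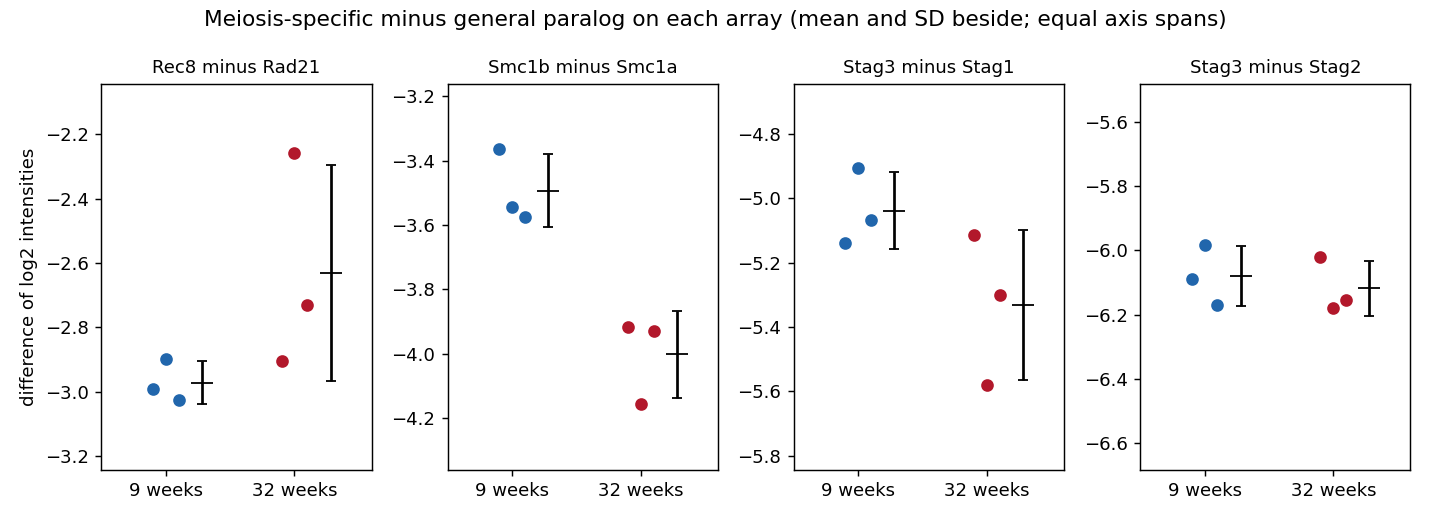
Log2 intensity of the meiosis-specific gene minus that of its general paralog (vertical axis, equal spans in the 4 panels) on each array at 9 and 32 weeks, with the mean and SD of 3 arrays beside the points. The groups are apart only for Smc1b minus Smc1a, which went from -3.49 to -4.00.

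The counts of related lists stand beside 2248 lower and 1699 higher of all 18193 genes at their brightest probe set. Other cohesin genes came from a list of 10. Of 8 measured at their brightest probe set, 3 passed as lower and none as higher, with a median of -0.155. These were Hdac8, which deacetylates SMC3 (-0.36, adjusted p = 0.0098), Pds5a, a ring-bound cofactor (-0.22, adjusted p = 0.027), and Esco2, the acetyltransferase of S phase (-0.36, adjusted p = 0.029). Rad21l and Ctcfl of this list were not analysed here. Among 12 genes of cohesin protection and cleavage, 2 were lower and 2 higher, with a median of -0.031. Fzr1, an activator of the anaphase-promoting complex, had -0.61 (adjusted p = 0.0025) and the kinase gene Haspin -0.30 (adjusted p = 0.013), while Cdc20, the other activator, had 0.48 (adjusted p = 0.0011) and Sgo1, which guards centromeric cohesin, 0.23 (adjusted p = 0.039). Another list joined genes of the meiotic chromosome axis, built on cohesin in meiotic prophase, with genes of the synaptonemal complex. Of its 10 measured genes, 3 were lower and none higher, with a median of -0.16. These were Tex12 (-0.69, adjusted p = 0.0021), Sycp1 (-0.55, adjusted p = 0.0054) and Sycp2 (-0.22, adjusted p = 0.030). The probe sets of Hdac8 (means of 4.37 and 4.01) and Sycp1 (4.03 and 3.49) were under the level of the brightest Y-linked probe set at both ages, and above the 12 dimmer ones. Condensin and SMC5/6, the related SMC complexes, had 2 of 13 lower and 2 higher and a median of -0.01 at the brightest probe sets, and 8 lower and 6 higher of all 36 probe sets. At the brightest probe sets Smc6 had -0.40 and Nsmce4a -0.26, and the condensin genes Ncaph2 and Ncaph had 0.21 and 0.23. A dimmer probe set of Ncaph2 went the other way and passed as lower (-0.52, limma adjusted p = 0.0017). Its remaining probe sets had 0.051 and 0.23 and did not pass. The dimmer probe sets of Smc6 ran from -0.71 to 0.12. The dimmer one of Nsmce4a had 0.049, and that of Ncaph had 0.21.

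Markers of other cells of the ovary also moved in these samples, where 2248 of all 18193 genes were lower and 1699 higher at their brightest probe set. Among 11 granulosa cell markers, 1 passed as lower and 1 as higher at the brightest probe sets, but over all 23 probe sets 6 were lower and 1 higher. Their brightest probe sets had a summed intensity of 33226 to 33594 on the young and 33155 to 34285 on the old arrays. Of 9 theca and stroma markers, 6 were higher and none lower, with sums of 2898 to 3062 and 3985 to 4035, led by Star (1.87) and Cyp11a1 (1.34) of steroid synthesis. The dimmer probe sets of Star also rose (1.18 and 1.88), while those of Cyp11a1 had 0.051 and 0.040 and did not pass. In this list 2 genes were below 0 without passing, Cyp17a1 with -0.11 and Pdgfra with -0.016. Of 10 macrophage markers, 5 were higher and 1 lower, with sums of 353 to 360 and 455 to 491, and of 6 endothelium markers 1 was higher and 1 lower. Oocyte and granulosa markers were bright, with median levels of 9.93 and 11.36 (log2). The general subunits and regulators are expressed in all of these cells, and the part of the cell makeup in their values was not tested.

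**Figure D4:**
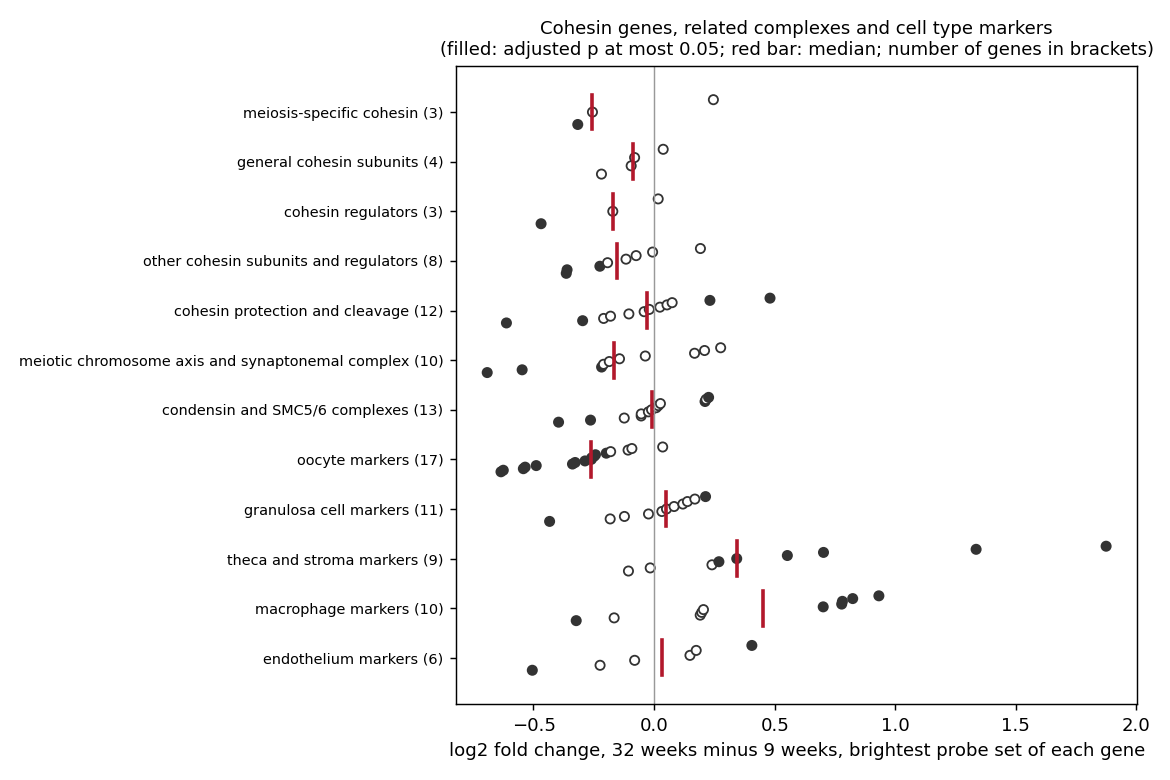
Log2 fold change of old minus young (horizontal axis) at the brightest probe set of each gene in the cohesin groups, related complexes and cell type marker lists, 1 point per gene, filled where the adjusted p was at most 0.05, with a red bar at the median. The oocyte markers lie mostly below 0 (median -0.26), the theca and stroma and macrophage markers mostly above it, and the cohesin groups between -0.47 and 0.25.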

How the data were processed

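RNA of mouse ovarian secondary follicles was measured in 3 young and 3 old samples on 1-colour arrays. The authors corrected, normalized and summarized the scans with RMA, for which the sources used here name no version, and deposited an intensity per probe set on a linear scale (the design had assumed log2), and log2 was taken with no pseudocount. Probe sets were named from the array's annotation. Symbols were updated through RefSeq gene IDs (GRCm38.p6), which held 99.1% of the IDs. The 64 control probe sets and those with several symbols (932) or none were left out.

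Ages were compared with limma 3.58.1 in R 4.3.3 (lmFit, eBayes, two-sided, Benjamini-Hochberg over 34945 probe sets). SAM, named in the methods of the study, was not run. Paralog differences were compared by exact permutation over samples. The brightest probe set of a gene had the highest mean over the 6 arrays. Every member was named, and in other lists up to 4 genes with the smallest p among those that passed, while Smc1a was named as a paralog. Star, Cyp11a1 and 2 motifs were chosen after values were seen. The members and lists were chosen with earlier results of these data known. The limma step was tested on simulated data with 200 changed probe sets among 34945. It recovered 92 of 100 changes of 1.2 on the log2 scale but only 4 of 100 changes of 0.3, with 3 false calls. In the data far more probe sets changed, since 13.8% passed as lower and 8.95% as higher. Adjustment over all probe sets was thus stricter in the simulation, and its recovery of small changes does not carry over to these data. A small change that did not pass may still be present. Alternatives were other normalizations, filters, probe set rules, priors, array weights, a fold minimum of 1.5, a block for the replicate number, and fits without 1 sample. Arrays have no depth, and their number limits the precision.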

Additional observations from a re-analysis of the deposited data

How the results depend on the processing

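The 9 lower member probe sets came to 2 with the brightest probe set per gene and 4 with the mean of a gene's probe sets, both over 10 genes only, and to 7 to 9 without 1 sample. Higher member probe sets, none as reported, were 2 after quantile or cyclic loess normalization and with probe sets under the median level left out, and 1 with the brightest probe set, the mean of probe sets or the eBayes trend. Lower by a fold of at least 2 were 0 to 1 without 1 sample, and 4 at a fold of 1.5. The 18 lower probe sets of the 4 related lists came to 10 with the brightest probe set and 11 to 14 without 1 sample. The 8 higher ones came to 13 without the dim probe sets, 5 with the brightest, 4 with the mean, 3 without shared probe sets, 4 with the replicate block and 3 to 6 without 1 sample. With the block, 9 member probe sets were lower and 0 higher. Same-numbered samples had correlations of 0.070, 0.020 and 0.037 between their deviations, so the numbers were not taken as pairs.

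With quantile and cyclic loess normalization, 1431921_a_at of Stag1 turned to 0.060 and 0.055 and 1434778_at of Wapl to 0.042 and 0.040, the latter to 0.011 with array weights. With probe sets averaged, Stag1 was at -0.38 (adjusted p = 0.0048 from limma), Wapl at -0.13, Stag3 minus Stag1 at 0.12 and Stag3 minus Stag2 at 0.20. Without 1 sample, Rad21 ran from -0.21 to 0.027 at 1416161_at (above 0 without old replicate 2) and from -0.16 to 0.27 at 1455938_x_at (below 0 without old replicate 1). Stag1 ran from -0.049 to 0.0087 at 1431921_a_at and from -0.0070 to 0.097 at 1434189_at (both turned without young replicate 3), Wapl from -0.071 to 0.050 at 1434778_at and from -0.016 to 0.060 at 1434835_at, and Nipbl from -0.014 to 0.15 at 1442103_at. Rec8 minus Rad21 ran from 0.15 to 0.48, Smc1b minus Smc1a from -0.55 to -0.43, Stag3 minus Stag1 from -0.40 to -0.17 and Stag3 minus Stag2 from -0.086 to 0.011. Relative to oocyte markers, Stag3 was at 0.058. The causes were not tested.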
